A study of Mus musculus with 3 samples.

Results

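The constitutive proteasome genes, 45 of 21951 protein-coding genes in the tables, were taken as every gene whose symbol begins with Psma, Psmb, Psmc, Psmd, Psme, Psmf or Psmg and a digit and that has at least 1 transcript annotated as protein_coding. Of the 54 symbols of that form, the 5 interferon-inducible genes Psmb8, Psmb9, Psmb10, Psme1 and Psme2 were left out by name, and 4 symbols (Psmb5-ps, Psmb6-ps, Psmb6-ps2 and Psmb7-ps2) had no protein_coding transcript. The RNA came from macrophages grown from bone marrow of C57BL/6J mice, treated with Lipid A at 100 ng/ml for 12 hours, washed and left for 12 hours, then given Lipid A at 100 ng/ml again for 25 minutes. Lipid A, the lipid anchor of bacterial endotoxin, activates Toll-like receptor 4. Total RNA of the cytosolic fraction, depleted of ribosomal RNA from an input of 1 µg, was sequenced in 3 libraries, biological replicates 1 to 3 of that 1 group. Every library received the same treatment, so nothing here says whether Lipid A changed a gene, and levels are described across genes and across the libraries. The replicates are separate biosamples under 1 donor entry, and the sex and age of the animals were not recorded. In bulk RNA, fewer cells and less RNA per cell cannot be told apart.

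The 26S proteasome degrades proteins that carry ubiquitin chains. Its 20S core is a barrel of alpha and beta rings, with the proteolytic sites of Psmb5, Psmb6 and Psmb7 inside, and the 19S regulatory particle caps the barrel, binds ubiquitin, removes it and unfolds the substrate with a ring of ATPases. In macrophages, interferons and microbial products induce Psmb8, Psmb9 and Psmb10, which replace the 3 constitutive catalytic subunits in newly built particles and alter the peptides supplied for antigen presentation. The name of the gene set holds for the 31 genes of the core and the cap, while it also takes in 7 assembly chaperones, 3 activators or regulators and 2 subunits known from other tissues. Another 2 genes carry the symbol without being constitutive subunits. Psme2b is a near copy of the interferon-inducible Psme2, and Psmc3ip encodes a partner of meiotic recombinases.

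Promoter sequence was available for 37 of the 45 genes, as 39 promoters of RefSeq (build GRCm38.p6) that run from 250 bases before to 50 bases after the annotated start. A core of the binding motif of ETS transcription factors, CCGGAAG on either strand, was present in 16 of the 39 promoters (41.0%), against 20.1% of 9508 promoters of genes expressed in these libraries and 8.86% of all 32851 promoters of the same length. By gene, the motif was found for 1 of 11 alpha and beta subunits of the core and for 9 of 14 base and lid subunits of the cap. The promoters of Psma6, Psmc1, Psmd2 and Psmd13 are shown, a choice made after the matches were seen, because each is the most abundant gene with the motif in its ring or subcomplex. Capitals mark every match to the motif or its reverse complement.
Psma6 (chr12:55398575-55398874, plus strand): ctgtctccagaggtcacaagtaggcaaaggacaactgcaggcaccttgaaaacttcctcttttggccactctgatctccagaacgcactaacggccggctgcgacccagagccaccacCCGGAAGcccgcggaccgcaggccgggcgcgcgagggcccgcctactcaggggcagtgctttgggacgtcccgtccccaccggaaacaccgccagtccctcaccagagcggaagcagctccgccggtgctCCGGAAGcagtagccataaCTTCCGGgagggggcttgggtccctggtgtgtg
Psmc1 (chr12:100109952-100110251, plus strand): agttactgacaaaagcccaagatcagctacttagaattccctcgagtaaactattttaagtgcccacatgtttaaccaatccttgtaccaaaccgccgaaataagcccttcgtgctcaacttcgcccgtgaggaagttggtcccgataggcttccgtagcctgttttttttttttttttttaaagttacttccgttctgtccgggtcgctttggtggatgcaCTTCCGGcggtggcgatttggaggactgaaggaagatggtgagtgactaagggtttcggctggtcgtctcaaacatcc
Psmd2 (chr16:20651402-20651701, plus strand): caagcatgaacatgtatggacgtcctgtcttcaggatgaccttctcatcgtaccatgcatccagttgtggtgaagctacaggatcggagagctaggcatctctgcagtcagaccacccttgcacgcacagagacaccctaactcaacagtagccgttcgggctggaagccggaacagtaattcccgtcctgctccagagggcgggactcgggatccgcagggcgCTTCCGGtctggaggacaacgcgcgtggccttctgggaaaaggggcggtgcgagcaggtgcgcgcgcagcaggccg
Psmd13 (chr7:140882144-140882443, plus strand): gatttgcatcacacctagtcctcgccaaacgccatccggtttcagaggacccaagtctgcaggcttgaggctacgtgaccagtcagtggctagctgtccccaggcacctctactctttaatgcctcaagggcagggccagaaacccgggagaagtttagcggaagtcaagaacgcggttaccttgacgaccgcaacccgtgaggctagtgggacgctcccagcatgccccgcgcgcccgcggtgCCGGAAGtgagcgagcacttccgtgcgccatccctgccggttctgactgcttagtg
Psma6 held 3 matches, which began 132 and 2 bases before and 17 bases after the start, whereas the single matches of Psmc1, Psmd2 and Psmd13 began 28, 26 and 6 bases before it. Psma6 has another promoter in the table, at the start of the gene model (chr12:55383972-55384271), which holds no match. The window shown covers the start of Psma6-201, at position 55398775, the transcript with 99.9%, 98.8% and 99.3% of the gene's TPM, and the 1 match among core genes rests on it. The CCAAT box was in 35.9% of the promoters of these genes and 37.4% of all promoters, and the GC box GGGCGG in 51.3%, against 63.5% of promoters of expressed genes and 35.7% of all. The core of the antioxidant response element, TGACNNNGC, is bound by the proteasome-inducing factor NRF1 and its relatives. It was in 6 promoters (15.4%), against 14.5% of promoters of expressed genes and 12.4% of all. The longer form TGACTCAGC was in 0 of the 39, against 0.454% of all, a share too low for 39 promoters to show a contrast. These are matches of letters, counted on both strands, and the windows hold no site further upstream.

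Total expected counts were 55517261, 21311556 and 45635014 in replicates 1, 2 and 3. The proteasome genes held 0.364%, 0.326% and 0.346% of the counts of nuclear protein-coding genes, from 63821 to 174497 counts a library. Macrophage markers Cd68, Adgre1, Lyz2 and Csf1r had means between 231 and 3737 TPM (transcript copies per 1000000, corrected for length), while none of 10 markers of other cell types reached 1 TPM and 4 of the 10 had no count in any library. The nuclear RNA Malat1 stood at 1156, 976 and 246 TPM. TPM of a gene also depends on the rest of the library, and protein-coding genes of the nuclear genome took 29.6%, 40.4% and 34.8% of all TPM. Genes are therefore compared with each other in TPM within libraries. Libraries are compared for 1 gene in protein-coding CPM, counts per 1000000 counts of nuclear protein-coding genes.

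Of the 45 genes, 42 reached 1 TPM or more in each of the 3 libraries, where 42.3% of all protein-coding genes met that limit. The median over the 45 genes was 32.0, 36.9 and 35.9 TPM in replicates 1, 2 and 3. Among the 42 expressed genes, 31 lay above 23.7 TPM, the upper quartile of expressed protein-coding genes, a level that 25.0% of those genes exceed, and 36 lay above their median of 9.88 TPM. The 3 genes below the limit were Psmb11, the catalytic subunit of the thymic cortex, Psma8, the alpha subunit of the testis, and the recombinase partner Psmc3ip. Psmb11 had 0 counts in each library, which allows up to 3 counts or 0.141 CPM in the shallowest one. Psma8 had 0.75, 0.52 and 0.76 TPM, and Psmc3ip had 0.49, 1.01 and 0.69 TPM. The order of the 42 genes was much the same in every library, with correlations of log2 TPM across genes between 0.967 and 0.986, a description over genes that share libraries and lengths.

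**Figure D1:**
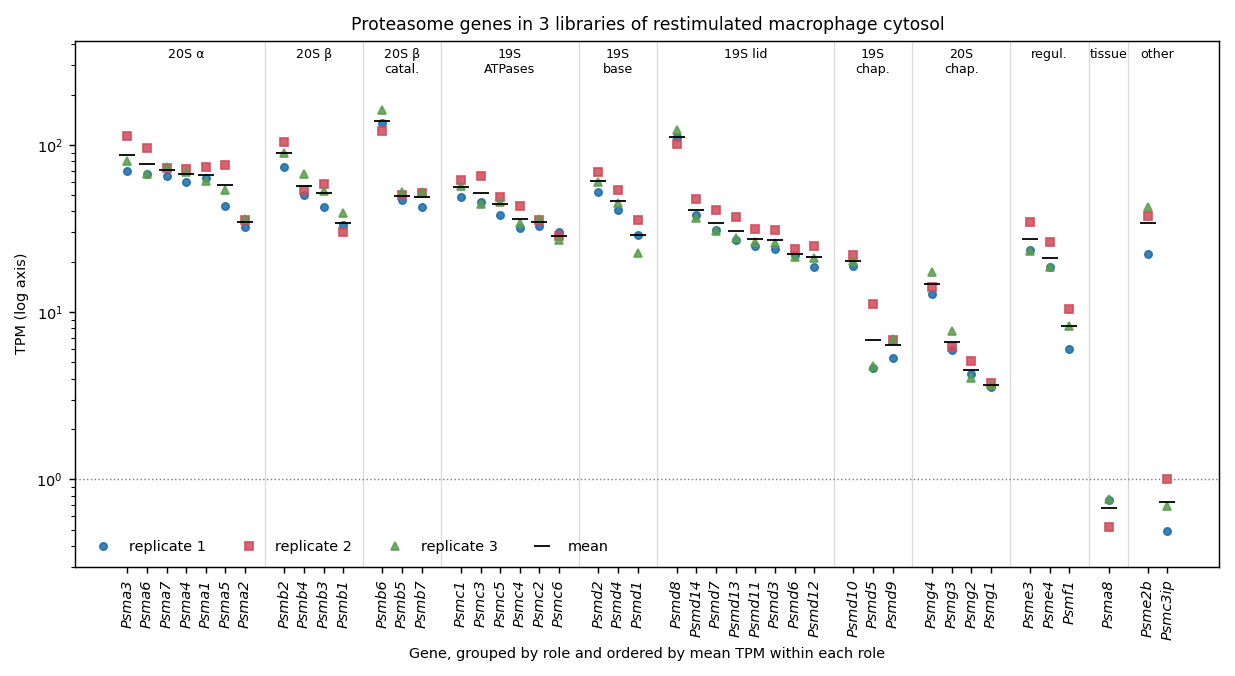
TPM of the 44 proteasome genes with any count, on a log axis, grouped by role, with 1 symbol for each of the 3 libraries, a bar for the mean and a dotted line at 1 TPM. Psmb6 and Psmd8 stand highest, and the assembly chaperones lie below most subunits.

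The alpha ring, which forms the gate of the barrel, had the highest median of the roles, 68.2 ± 5.11 TPM over its 7 genes (SD, n = 3). Psma3 led it with 70.0, 113 and 79.9 TPM, followed by Psma6 with 66.9, 95.8 and 67.1 TPM. Psma1 had 63.8, 73.8 and 60.8 TPM. Psma5 had 43.2, 75.5 and 53.9 TPM, and Psma2 was lowest with 32.3, 35.4 and 36.2 TPM. Psma2 was the only alpha gene whose mean ± SD lay clear of its neighbour in the order, the other neighbours overlapped, and Psma7 and Psma4 lay between 59.9 and 74.2 TPM in all libraries. The fold between the highest and the lowest mean of the ring was 2.53, although assembled rings hold 1 copy of each subunit.

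The median over structural beta subunits was 54.3 ± 7.06 TPM (SD, n = 3). Psmb2 had 74.0, 104 and 89.6 TPM, and Psmb4 had 50.2, 53.7 and 67.4 TPM. Psmb3 had 42.8, 58.4 and 53.2 TPM, and Psmb1 had 33.3, 30.3 and 39.2 TPM. Psmb2 lay above and Psmb1 below the others beyond their spread, while Psmb4 and Psmb3 overlapped.

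The catalytic subunits were unequal. Psmb6, which carries the caspase-like site, had 136, 122 and 162 TPM, the highest mean of all 45 genes (139.8 ± 20.4 TPM, SD, n = 3). Psmb5, which carries the chymotrypsin-like site, had 47.0, 50.4 and 52.0 TPM, and Psmb7, which carries the trypsin-like site, had 42.4, 51.3 and 52.4 TPM. Psmb5 and Psmb7 did not differ beyond their spread, and Psmb6 was 2.87-fold higher than Psmb7 in mean TPM. Psmb6 lies at chr11:70525367-70527858 on the plus strand, Psmb5 at chr14:54614119-54618022 on the minus strand and Psmb7 at chr2:38588036-38644087 on the minus strand (mm10). Psmb7 overlaps Nek6 on the other strand over 6571 bases, and the use of strand in counting is not given in the sources used here.

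In the 19S base, the 6 ATPases that unfold substrates had the narrowest range of any role with more than 3 genes, a 1.95-fold difference between the highest and the lowest mean, around a median of 40.4 ± 5.24 TPM (SD, n = 3). Psmc1 had 48.7, 62.0 and 56.5 TPM, and Psmc3 had 45.5, 64.8 and 44.4 TPM. Psmc2 had 32.6, 35.8 and 35.9 TPM, and Psmc6 had 30.3, 28.5 and 27.2 TPM. Psmc5 and Psmc4 lay between 32.0 and 48.6 TPM, and only Psmc6 lay clear of its neighbour. The scaffold and ubiquitin-binding subunits of the base were spread over a like range. Psmd2, a scaffold at chr16:20651652-20663414 on the plus strand, had 52.3, 69.2 and 60.3 TPM. Psmd4, a ubiquitin receptor, had 40.9, 53.7 and 45.0 TPM, and the second scaffold gene Psmd1 had 29.1, 35.5 and 22.7 TPM.

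The lid, which holds the deubiquitinase Psmd14, had 1 gene far above the rest, and its median was 29.0 ± 4.49 TPM (SD, n = 3). Psmd8 had 112, 101 and 123 TPM, and Psmd14 followed with 38.1, 47.7 and 36.7 TPM. Psmd6 had 21.9, 23.8 and 21.3 TPM, and Psmd12 averaged 21.5 ± 3.23 TPM (SD, n = 3), from 18.5 to 25.0 TPM. Psmd7, Psmd13, Psmd11 and Psmd3 lay between 23.8 and 40.7 TPM. Psmd8 was 5.22-fold above Psmd12 in mean TPM, and the mean ± SD ranges of neighbours below it overlapped. The order of those neighbours was still the same in all 3 libraries, except for Psmd6 over Psmd12 (2 of 3). Over the 14 core genes the median was 63.8 ± 8.70 TPM, against 35.5 ± 4.59 TPM over the 17 base and lid genes (SD, n = 3), and the core was higher in each library.

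The assembly chaperones of the set, which guide the build of the particle, had lower means than its core and cap subunits. Psmd10, the highest of them, overlapped Psmd12 of the lid (20.3 ± 1.54 against 21.5 ± 3.23 TPM, SD, n = 3). In replicate 1 Psmd10 was the higher of the pair, at 18.8 against 18.5 TPM. Pomp, a core chaperone whose symbol lies outside the set, averaged 87.0 TPM. Of the chaperones for the base, Psmd10 had 18.8, 21.9 and 20.2 TPM, Psmd9 had 5.33, 6.80 and 6.88 TPM, and Psmd5 had 4.62, 11.1 and 4.77 TPM. Psmd5 was high in replicate 2 in TPM only. Its protein-coding CPM was 34.3, 32.0 and 27.0, because TPM divides by an effective length that was 3934, 2098 and 3536 bases in the 3 libraries. Of the chaperones for the core, Psmg4 had 12.9, 14.2 and 17.4 TPM and Psmg3 had 5.92, 6.15 and 7.75 TPM. Psmg2 had 4.29, 5.10 and 4.05 TPM and Psmg1 had 3.58, 3.77 and 3.68 TPM, the lowest mean among the 42 expressed genes. The order of these 4 genes was the same in every library, with no overlap between neighbours. Over all roles, 20 of 34 neighbouring pairs overlapped within their SD. Some overlapping pairs kept their order in all 3 libraries, such as Psma3 over Psma6, Psmc5 over Psmc4 and Psmd2 over Psmd4. Others did not, such as Psma4 over Psma1, with that order in 1 library.

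Activators and regulators were intermediate. Psme3, the nuclear activator PA28 gamma, had 23.7, 34.8 and 23.2 TPM, and Psme4, a large activator of the core, had 18.6, 26.3 and 18.6 TPM. Psmf1, which binds the core and inhibits it in the test tube, had 6.02, 10.4 and 8.24 TPM.

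The constitutive catalytic genes were set beside the interferon-inducible genes that replace them. Psmb5 had 47.0, 50.4 and 52.0 TPM, and its counterpart Psmb8 had 170, 214 and 265 TPM. Psmb5 was lower in 3 of 3 libraries, with a log2 ratio of -2.10 ± 0.25 (SD, n = 3). Psmb7 had 42.4, 51.3 and 52.4 TPM, and Psmb10 had 151, 168 and 237 TPM, a log2 ratio of -1.91 ± 0.24 and again lower in 3 of 3. The third pair ran the other way. Psmb6 had 136, 122 and 162 TPM, and Psmb9 had 55.8, 78.5 and 102 TPM, so Psmb6 was higher in 3 of 3 libraries with a log2 ratio of 0.86 ± 0.36 (SD, n = 3). Of the activator genes, Psme3 was set beside Psme1, the PA28 alpha gene, as a comparison of levels and not as an exchange of subunits. Psme3 had 23.7, 34.8 and 23.2 TPM, and Psme1 had 149, 396 and 211 TPM, a log2 ratio of -3.11 ± 0.43. The two-sided exact sign-flip permutation test over 3 libraries cannot go below 0.25, and each of the 4 ratios gave p = 0.25, also after Benjamini-Hochberg adjustment over the 4.

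Part of the gap lay in transcripts that are not annotated to make the protein. When only protein_coding transcripts were summed, a choice made after seeing the data, Psmb5 had a log2 ratio to Psmb8 of -1.19 ± 0.26 and Psmb7 to Psmb10 of -0.50 ± 0.19 (SD, n = 3). In fold terms Psmb8 then exceeded Psmb5 by 2.28-fold in place of 4.28-fold, and Psmb10 exceeded Psmb7 by 1.41-fold in place of 3.75-fold. The short processed transcript Psmb10-203 took 50.6%, 44.5% and 51.8% of the TPM of Psmb10, and the retained-intron transcript Psmb8-205 took 47.4%, 38.2% and 49.8% of that of Psmb8. The ratio of Psmb6 to Psmb9 moved less, to 0.76 ± 0.42, and that of Psme3 to Psme1 to -2.67 ± 0.40. In replicate 2 the high TPM of Psme1 came with a 439-base nonsense-mediated decay transcript, Psme1-209, at 56.4% of its TPM, against 4.98% and 5.11% in replicates 1 and 3.

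**Figure D2:**
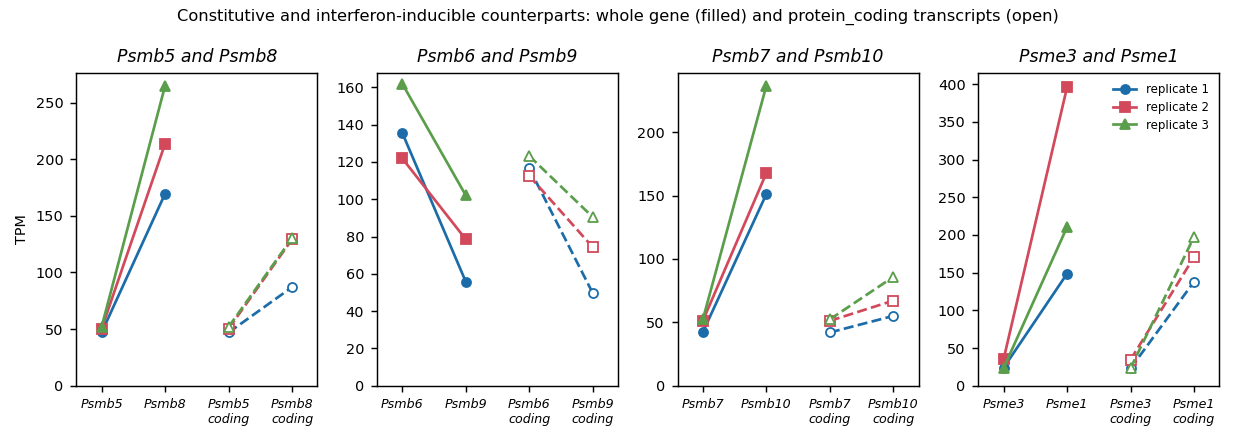
TPM of each constitutive gene (left of each pair) and the interferon-inducible gene set beside it (right), joined by a line within each of the 3 libraries. Filled symbols are whole genes and open symbols protein_coding transcripts alone. Psmb5, Psmb7 and Psme3 lie below Psmb8, Psmb10 and Psme1 in each library, and Psmb6 lies above Psmb9. The gap of Psmb7 to Psmb10 narrows from 3.75-fold to 1.41-fold with protein_coding transcripts alone.

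Most proteasome genes were read as 1 coding message. The annotation gave 221 transcripts for the 42 expressed genes. The most abundant transcript was protein_coding in 41 of 42, and it took over 90% of the gene's TPM in 30. The same counts were not made over all expressed genes, so they do not set the proteasome genes apart. The 30 also depends on the transcript table. In another one, estimated from the reads, the mean share was below 90% for Psmc6, Psmd12, Psmb1, Psme4, Psme3 and Psmd14, all among the 30. Transcripts not annotated as protein_coding took a median of 1.99%, 0.653% and 0.770% of a gene's TPM in replicates 1, 2 and 3. Over all expressed protein-coding genes the medians were 4.78%, 1.30% and 1.66%. Among the 34 genes with any such share, it was highest in replicate 1 for 26, where 60.7% of expressed genes with such a share showed the same. The nuclear RNA Malat1 was also highest in replicate 1, at 8331, 3481 and 1445 protein-coding CPM, and its part in the result was not tested.

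Psma3 and Psmd13 had the largest such shares among the 42 genes. Psma3 had 50.4%, 40.6% and 46.3% of its TPM in transcripts not annotated as protein_coding, of which the retained-intron transcript Psma3-203 took 27.8%, 15.3% and 27.4% and the decay transcript Psma3-201 took 19.7%, 9.76% and 14.8%. In the coding transcript Psma3-204 alone, Psma3 had 32.0, 63.3 and 41.2 TPM, about the level of Psma2 in replicate 1. Psma3 also overlaps the transcript 3110056K07Rik on the other strand, which had a mean of 2.25 TPM. Psmd13 was the 1 gene whose most abundant transcript was not protein_coding. Its decay transcript Psmd13-211 took 30.4%, 44.6% and 40.1%, and the coding Psmd13-201 took 33.3%, 18.6% and 38.1%. Psmb6 had 11.4%, 5.77% and 21.1% in the retained-intron transcript Psmb6-202, and its coding transcript Psmb6-201 alone still had 117, 113 and 123 TPM.

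For Psmd5, Psmc3 and Psmd12, picked after their shares were seen, a shorter coding transcript took its largest share in replicate 2. The 555-base Psmd5-202 took 3.03%, 53.7% and 14.5% of the TPM of Psmd5, whose main transcript Psmd5-201 is 4397 bases long. The other transcript table, estimated from the reads rather than from the alignment, gave Psmd5-202 24.0%, 59.1% and 34.6%. The 944-base Psmc3-210 took 24.8%, 48.9% and 14.6% of the TPM of Psmc3, and 29.3%, 53.0% and 22.9% in the read-based table. Psmd12-202 was listed at 0%, 17.8% and 0% in the transcript table that goes with the gene table, and at 22.1%, 38.5% and 18.2% in the read-based table. The tables thus differ in the shares of these transcripts in replicates 1 and 3, and in both tables the shares are highest in replicate 2. The ubiquitin receptor gene Psmd4 showed no such shift, with Psmd4-202 at 63.2%, 62.8% and 66.2% and Psmd4-201 at 34.6%, 36.1% and 32.8%. The 735-base coding transcript Psmd9-204 was highest in replicate 3, at 12.2%, 22.6% and 36.4% of the TPM of Psmd9. It took 27.6%, 36.1% and 44.1% in the read-based table. Such shifts were not counted over the set or over all genes, so they are no trait of the set. These shares come from a model that divides reads among overlapping transcripts. The shift of Psmd5, Psmc3 and Psmd12 goes with the shallowest library, whose part in it was not tested.

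**Figure D3:**
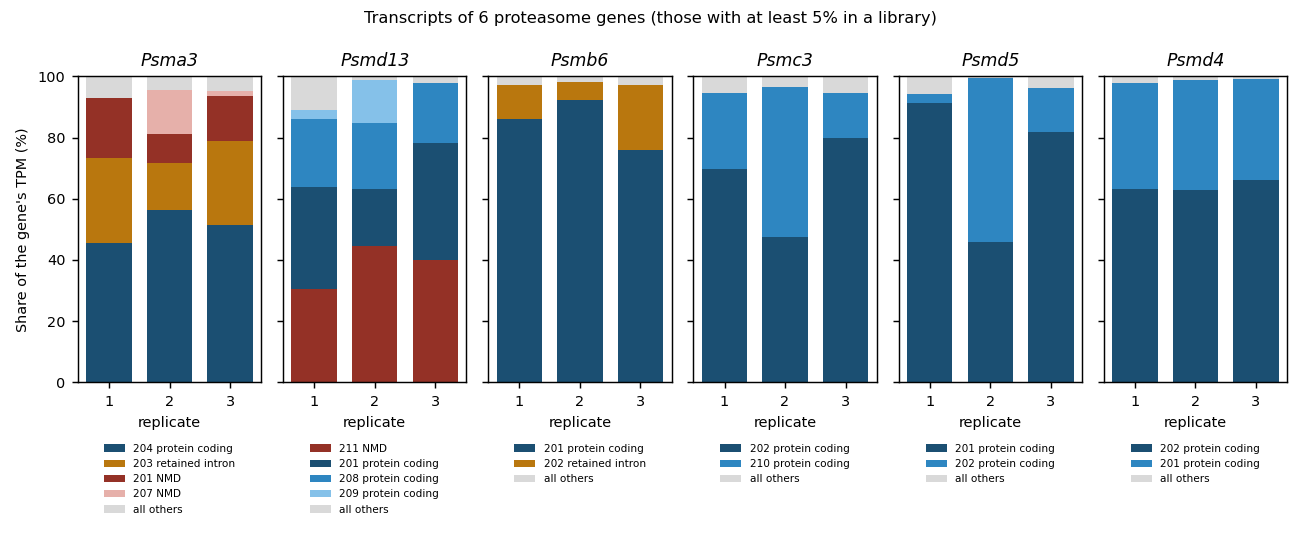
Share of each gene's TPM by transcript in the 3 libraries, for 6 proteasome genes, as stacked bars from 0 to 100% with transcripts below 5% in every library in grey. Psma3 and Psmd13 hold large shares in retained-intron or nonsense-mediated decay (NMD) transcripts, Psmd5 and Psmc3 shift to a shorter coding transcript in replicate 2, and Psmd4 keeps its shares.

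Between libraries the proteasome genes varied about as much as other expressed genes. The median SD of log2 protein-coding CPM (with 0.1 added) was 0.14 over the 42 genes and 0.17 over 9269 expressed nuclear protein-coding genes, and 0.13 and 0.15 for genes at 10 TPM or more. Counting error alone would give a median of 0.029, and the SD was above counting error in all 42 genes. Without replicate 2 the median SD over the 42 genes was 0.084. Psmd2 was steadiest, with 249, 255 and 256 protein-coding CPM and an SD of 0.020. The 5 genes with the largest spread were Psme2b, Psmb6, Psmb1, Psmd8 and Psmg4. Psmb6 had 143, 93.0 and 147 protein-coding CPM, and Psmb1 had 96.8, 63.5 and 97.8. Psmd8 had 243, 160.4 and 234, and Psmg4 had 7.32, 5.57 and 8.80. In these 4 genes replicate 2 was the low library. Psme2b was lowest in replicate 1, with 25.9, 31.3 and 43.5.

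By the median ratio to the other libraries, the set as a whole was lowest in replicate 2, though not each gene was. Set against the mean of the other 2 libraries, the median log2 ratio was 0.10, -0.13 and 0.015 over the 42 genes in replicates 1, 2 and 3, against 0.093, -0.021 and -0.089 over all expressed genes. Replicate 2 was lower for 31 of 42 genes, where 53.4% of all expressed genes were lower. Replicate 1 was lower for 7 of 42, against 32.7% of all, and replicate 3 for 20 of 42, against 64.1%. With TMM scaling replicate 1 was lower for 22 of 42 (5486 of 9269 expressed genes), replicate 2 for 30 of 42 (4741 of 9269) and replicate 3 for 9 of 42 (3910 of 9269). The median of replicate 1 turned to -0.046 under it (all expressed genes -0.052) and that of replicate 3 was 0.15 (all 0.045), and with TPM rescaled to protein-coding genes replicate 3 turned to -0.017. Replicate 2 stayed below 0 under each of the 4 scalings, between -0.13 and -0.055.

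Of the roles with expressed genes, core chaperones, catalytic beta and structural beta genes had the lowest median log2 ratios in replicate 2. These were -0.41, -0.35 and -0.26 in protein-coding CPM. A ratio below 0 means below the mean of the other libraries, not the lowest library. Psmg2 was lowest in replicate 3, with 6.76, 5.77 and 5.60 protein-coding CPM, and Psmb2 in replicate 1, with 88.8, 89.6 and 94.0. All 3 catalytic beta genes and all 4 Psmg chaperones were lower in replicate 2 under each of the 4 scalings. So were all 4 structural beta genes in protein-coding CPM and TMM scaling and 3 of the 4 in the others. Of 9269 expressed genes, 4946 were lower in protein-coding CPM, 4588 in rescaled TPM, 4741 with TMM scaling and 3903 in CPM over all counts. In protein-coding CPM, the log2 ratios were -0.64 for Psmb6, -0.62 for Psmb1, -0.53 for Psmg4, -0.50 for Psmg3 and -0.41 for Psmb4. In the cap, all 6 ATPases were below the mean of the other libraries (4 to 6 of 6 under the scalings), most of all Psmc6 at -0.32. Psmc3 and Psmc4, at -0.079 and -0.0029 in replicate 2, had their lowest protein-coding CPM in replicate 3. Psmd8 of the lid was at -0.57 in replicate 2. None of the 3 activators and regulators was lower under any of the 4 scalings, with ratios of 0.22 for Psme3, 0.22 for Psme4 and 0.071 for Psmf1. The alpha genes were divided, with Psma5 at 0.27 and Psma6 at 0.12 above and Psma7 at -0.31 below. Psmd1 was low in replicate 3, at 156, 139 and 103 protein-coding CPM. Pomp, a chaperone of the core whose symbol lies outside the set, was also lowest in replicate 2, with 152, 80.6 and 129.9 protein-coding CPM, and so was the small lid subunit gene Sem1, with 87.3, 42.9 and 94.2. Both are named after their values were seen. Of the other partners measured, Adrm1 was lower in replicate 2, with a log2 ratio of -0.25, and Uchl5 (0.21), Ube3c (0.13), Usp14 (0.073) and Ecpas (0.048) were higher. The interferon-inducible genes Psmb8, Psmb9 and Psmb10 had ratios of -0.43, -0.42 and -0.50 in replicate 2, Psme2 was at -0.33 and Psme1 at 0.024. Each of these genes was highest in replicate 3, and its ratio in replicate 1 was also below 0. Psmb8, for example, had 264, 233 and 362 protein-coding CPM.

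**Figure D4:**
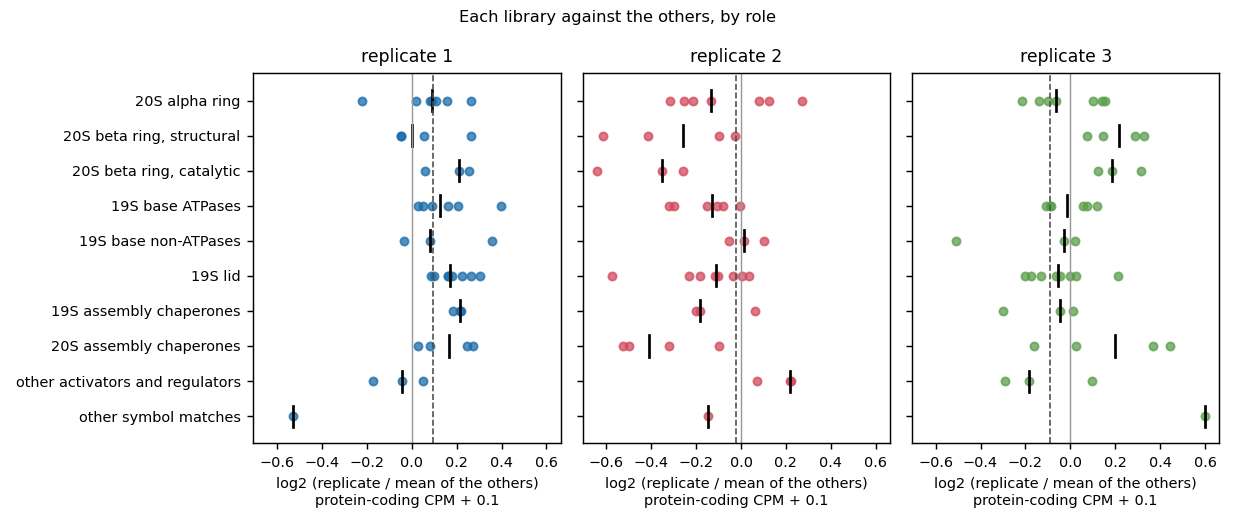
Log2 ratio of a library over the mean of the other 2, in protein-coding CPM, for the 42 expressed proteasome genes, by role, with a black bar at the role's median, a solid line at 0 and a dashed line at the median of all expressed protein-coding genes. In replicate 2 the beta rings and the 20S assembly chaperones lie left of 0 and the activators and regulators lie right of it.

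Message length moved with the ratios of replicates 2 and 3. Across the 42 genes, Pearson's r of the log2 ratio with log2 length of the main transcript was 0.44 in replicate 2 and -0.54 in replicate 3, against 0.30 and -0.25 across 9265 expressed genes. In replicate 1 it was 0.13, against -0.027. With GC content r was -0.15, -0.22 and 0.33 in replicates 1, 2 and 3, against -0.14, -0.10 and 0.24. The 14 genes with the highest GC content, from 51.6% to 58.3%, were all lower in replicate 2, as were 56.7% of 3085 expressed genes in that range of GC content. Of the 14 genes in the middle range 9 were lower, against 50.9% of 2215 expressed genes, and of the 14 with the lowest GC content 8 were, against 49.4% of 2980. These points share 3 libraries and are given as a description. Roles differed in length as well. Main coding transcripts ran from 555 to 1059 bases for the Psmg genes and from 798 to 1160 for the catalytic genes. Those of the activators and regulators ran from 2664 to 6491 bases. Replicate 2 also had the fewest counts, and the part of length, base composition and depth in the result was not tested.

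**Figure D5:**
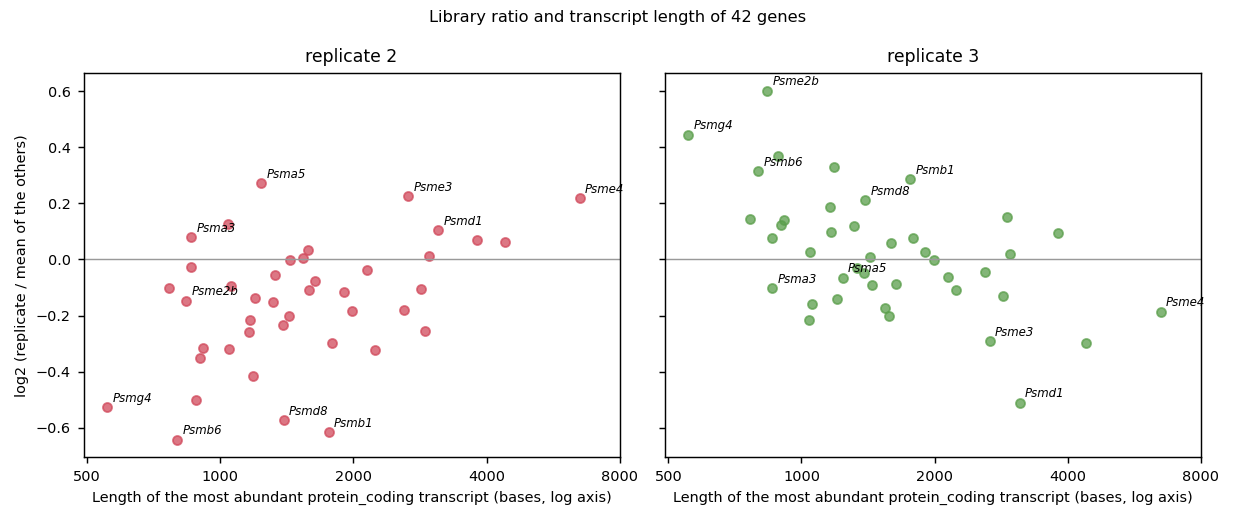
Log2 ratio of replicate 2 (left) and replicate 3 (right) to the mean of the other libraries against the length of the main coding transcript, on a log axis, for the 42 expressed proteasome genes. Short messages such as Psmg4 and Psmb6 lie low in replicate 2 and high in replicate 3, and the long messages of Psme4 and Psmd1 lie the other way.

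Near copies made 1 gene of the set uncertain. Copies that match 50% or more of the main transcript with 95% identity or more were annotated for 9 of the 45 genes, 14 in all. Psme2b, at chr11:48945354-48946190 on the minus strand, differs from Psme2 on chromosome 14 at 5 of 717 coding bases (99.3% identity). The stretch of coding bases 454 to 543 holds 3 of the 5 differences, in capitals, and is shown because a read that covers none of them fits both genes.
Psme2b: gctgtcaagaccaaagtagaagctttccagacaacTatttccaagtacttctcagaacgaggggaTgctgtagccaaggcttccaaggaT
Psme2: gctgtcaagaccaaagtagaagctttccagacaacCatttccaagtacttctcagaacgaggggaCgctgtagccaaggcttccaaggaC
Psme2b had 22.3, 37.8 and 42.7 TPM, and Psme2 had 229, 278 and 300.2 TPM. The counts given to Psme2 were 922%, 705% and 723% of those given to Psme2b. On the same strand Psme2b also overlaps Gm12185 over 837 bases (mean 2.75 TPM) and 9930111J21Rik1 over 41 bases (mean 43.2 TPM). The read-based quantification put Psme2b higher, the gene table being 0.546 of it after rescaling. Elsewhere the copies held little. The copy of Psmd11, on chromosome 2, held 7.16% of the counts of Psmd11, those of Psma3 held 1.35%, and for Psma4, Psma5, Psmb3, Psmb5, Psmc1 and Psmd2 the copies held less than 1%. Overlapping genes at 1 TPM or more were annotated for 7 of the 45 genes. Neither copies nor overlaps were counted over all genes, so these counts do not set the proteasome genes apart. Psmc3 shares 4579 bases with Slc39a13 on the other strand (mean 14.2 TPM), and Psma2 shares 8943 bases with AW209491 on the same strand (mean 3.14 TPM). None of the 42 genes differed over 2-fold between the quantifications. Of expressed genes 0.550% did, a share too low for 42 genes to show a contrast.

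Partners of the proteasome that carry other symbols were present as well. All 7 measured partners passed 1 TPM throughout, and their median was 23.3 TPM. That limit was met by 42.3% of all protein-coding genes, also for the counts of the lists below. The lists were chosen with earlier results of these data known, so their full counts are no finding about the pathways. Pomp averaged 87.0 ± 12.3 TPM (SD, n = 3), above its fellow core chaperones of the Psmg family, and Adrm1, a ubiquitin receptor of the cap, had 27.2, 30.4 and 29.3 TPM. Usp14, a deubiquitinase bound to the cap, had 18.1, 30.8 and 20.8 TPM. The 6 genes of the NRF1 pathway, by which cells replace inhibited proteasomes, were all expressed. Nfe2l1, which encodes NRF1, had 72.4, 77.8 and 74.6 TPM, a level near that of the alpha ring, and Vcp, the segregase that extracts it from the membrane of the endoplasmic reticulum, had 65.7, 81.3 and 58.9 TPM. Its protease Ddi2 had 9.86, 16.8 and 11.1 TPM, and the deglycosylase Ngly1 averaged 8.62 ± 1.36 TPM (SD, n = 3). Of ubiquitin supply and shuttling, 10 of 10 genes were expressed, with Uba6, a ubiquitin-activating enzyme, lowest at a mean of 4.51 TPM and the shuttle gene Rad23b at 30.9, 41.4 and 29.6 TPM.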

How the data were processed

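Per the file headers, the authors deposited expected counts and TPM per gene and per transcript for each library, and another transcript table that holds TPM and estimated counts. Per the deposited description files, build mm10 and GENCODE release M21 were used, the first tables rest on a transcriptome alignment and the last on the reads themselves. Which programs were run, and whether strand was used, is not given in the sources used here.

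Gene tables gave the levels, and the read-based table was an alternative. Identifiers without annotation were left out and held at most 0.262% of the counts. Protein-coding CPM is the expected count per 1000000 counts of all nuclear protein-coding genes together, with 0.1 added before log2. Rescaled TPM sets the TPM of those genes to 1000000. Ratios of constitutive over inducible genes were taken within libraries, with an exact sign-flip permutation test. No test between groups was possible with 1 group. SDs show how far these samples differ, which may be technical variation, and counts of 0 allow 3 counts, for counting error only. edgeR 4.0.16 in R 4.3.3 gave TMM factors only. Copies were searched with blastn 2.17.0, and the rest ran in Python 3.11.15 with pandas 2.3.3, numpy 2.4.6 and matplotlib 3.10.9. The calculation of library ratios was tested on simulated data.

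The members, roles and related gene lists were chosen with earlier results of these data known. Values in every library are given for the 2 highest and 2 lowest genes of each role by mean TPM, the 3 catalytic genes, Psma1, Psmd2 and the 5 expressed genes of largest spread. Other genes were named for their transcripts, copies or library ratios after their values were seen. Neighbours in the order were said to overlap where their mean ± SD ranges did, which does not use the order within each library. Promoters are from RefSeq, and 1 listed partner gene, Paaf1, was not analysed here.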

Additional observations from a re-analysis of the deposited data

How the results depend on the processing

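Of 115 alternatives for 21 results, 89 left the result on the same side or within its range. TPM levels depended on the scale. With the read-based table and with TPM rescaled to protein-coding genes, the median over all members was 16.8 and 100.9 TPM, that of the alpha ring 31.8 and 196.9, of structural beta genes 24.1 and 156.4, and of catalytic genes 22.7 and 145.4. Likewise the ATPases had 19.5 and 115.9 TPM, the other base genes 21.1 and 133.3, the lid 14.4 and 83.0, base chaperones 4.17 and 21.8, core chaperones 2.50 and 16.0, and activators and regulators 11.5 and 60.4. Protein-coding genes take a different share of TPM in each table, and by that construction these values moved. The median SD between libraries ranged from 0.0843 without replicate 2 to 0.154 without replicate 3. With TMM scaling the median library ratio was -0.046 in replicate 1 and 0.15 in replicate 3, and with rescaled TPM that of replicate 3 was -0.017. The 4 ratios of constitutive over inducible genes kept their sign under every alternative run, but with counts not divided by length Psme3 over Psme1 was -1.39, Psmb6 over Psmb9 0.26 and Psmb7 over Psmb10 -1.15 (log2). Members further apart between quantifications than the limit numbered 1 at 1.5-fold (Psme2b) and 29 without rescaling. No paired analysis was possible because there is only 1 group. Replicate 2 has the fewest counts, so low genes such as the Psmg chaperones are least precise there.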
